A study of Saccharomyces cerevisiae with 6 samples.

Results

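The 40 genes described here encode the enzymes that make purines, pyrimidines and folate in Saccharomyces cerevisiae, with 1 regulator, BAS1. They were taken as a list of symbols matched to the platform annotation, with earlier results of these data known, and all 40 were found, each on 2 spots, among 5539 named genes. By role, 17 belong to the purine branch, 5 supply phosphoribosyl pyrophosphate (PRPP), 10 belong to the pyrimidine branch and 8 to the folate and one-carbon branch. Each of 6 two-colour arrays set total RNA of a met4 mutant, a deletion mutant by the series title, in Cy3, directly against that of the wild type, in Cy5. Both strains had spent 1 hour in 0.2 mM As(III) (arsenite), so every value below is a difference between strains under arsenite. The labels name neither the strain background, its other alleles, nor the way MET4 was deleted. They leave unsaid whether separate cultures lie behind the 6 replicates, so the p-values cover the spread between arrays, part of which may be technical.

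Purine nucleotides are assembled on PRPP in a chain of reactions that ends in inosine monophosphate (IMP), which is then turned into AMP or GMP. Pyrimidines are made by closing the ring first and adding PRPP afterwards, to give uridine monophosphate (UMP), from which UDP, UTP and CTP follow. Folate cofactors carry the single-carbon groups that purine and thymidylate synthesis consume, and the same carriers supply the methyl group of methionine. Met4 is the activator of the sulfur amino acid genes, so the purine, pyrimidine and folate genes adjoin its pathway but are not among its textbook targets. In yeast several genes of IMP and AMP synthesis are switched on together by Bas1 with its partner Pho2 (Bas2) when adenine is scarce. Several pyrimidine genes are switched on by Ppr1.

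Each array's median over all spots was subtracted from its log2 ratios, and values are given as mean ± SD over n = 6 arrays. The log base is not stated in the sources used here and was taken as 2. If the values were natural logarithms, each printed unit would be worth 1.44 log2 units. A positive value is likely higher in the mutant, from the order in the sample titles and from MET4 itself, since no source used here states the numerator. A ratio of Cy5 over Cy3 would be wild type over mutant, and every direction given here would then be reversed. MET4 was below 0 on 6 of 6 centred arrays, at -0.59 ± 0.25 (SD, n = 6; limma, adjusted p = 0.0112), though not past the threshold in the values as deposited (adjusted p = 0.600). That mean is a ratio of 0.664, a small decrease for a deleted gene, which makes it a weak check of the label and of the direction. The mutant was in Cy3 throughout, so an effect of the dye on a gene and the effect of the mutation cannot be told apart. The array medians lay between -0.95 and 0.92 before centring. Across genes the arrays correlated with r between 0.0817 and 0.759, with arrays 3 and 5 (0.759) and arrays 4 and 6 (0.609) closer to each other than the median pair (0.448).

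In the 40 genes the differences ran both ways, and every branch held means both above and below 0. In the pyrimidine branch 8 of 10 means were below 0 and in the purine branch 11 of 17 were above 0, beside 50.7% of all genes above 0. Upward changes were found in ADE2 and ADE16 of the purine branch and URA10 of the pyrimidine branch. Downward ones were found in GUA1 (purine), PRS1 (PRPP supply), URA1 and URA5 (pyrimidine). The 8 folate and one-carbon genes gave no call, with 0 of 8 past the adjusted threshold and 2 at an unadjusted p under 0.05, both lower, where 29.5% of all genes had an unadjusted p that low. Thus 3 of 40 were higher and 4 lower at a limma adjusted p under 0.05 over all genes, or 17.5%. Of all 5539 genes 15.1% were called, 9.41% higher and 5.69% lower, so the share among the 40 was near the background. In the values as deposited 1 of the 40 was called, higher (URA10), against 4.44% of all genes. The median of the 40 means was -0.01, and that of all genes 0.01. Of the 40, 5 had the same sign on all 6 arrays (12.5%), while 18.1% of all genes did.

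**Figure D1:**
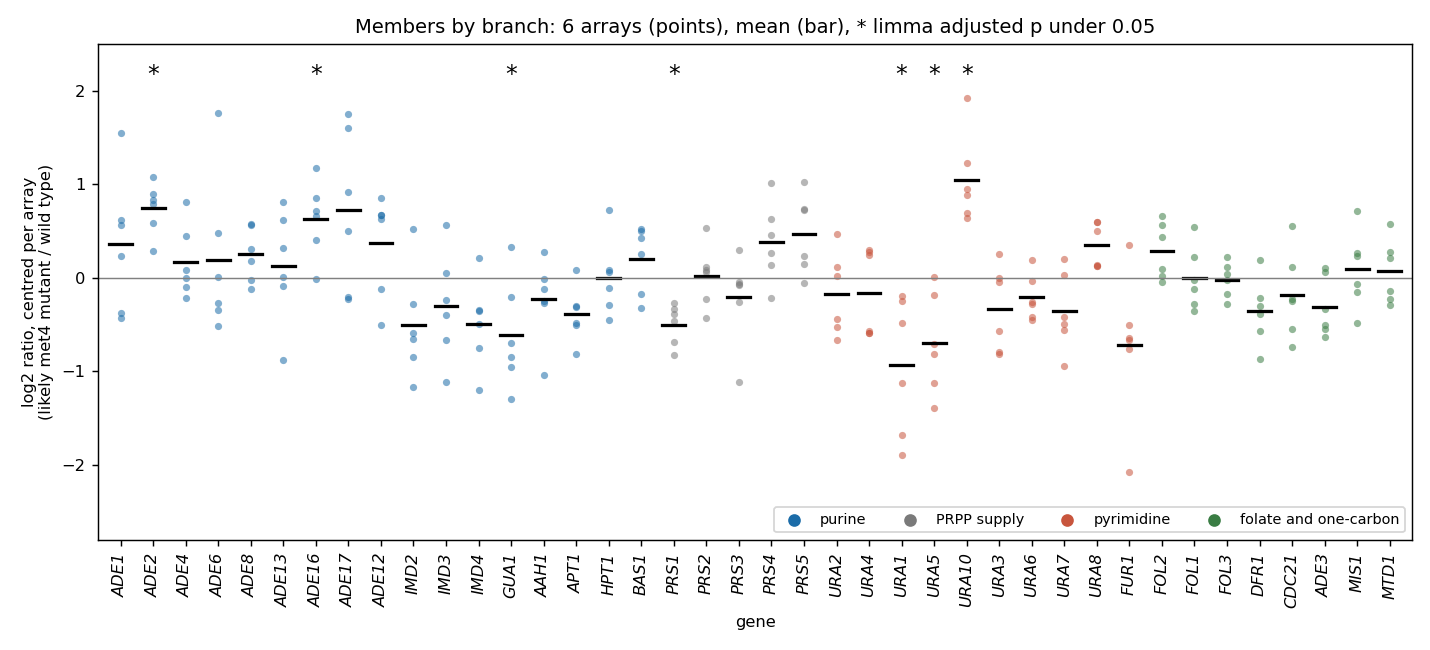
Log2 ratio (vertical axis, centred per array, likely met4 mutant over wild type) of each of the 40 genes on 6 arrays (points) with the mean (bar), coloured by branch. Asterisks mark the 7 genes with a limma adjusted p under 0.05. The lowest point of URA10 is at 0.64, and URA1 and PRS1 have all points below 0.

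In IMP synthesis every gene measured had a mean above 0, though not a value above 0 on every array. The means of its 8 genes lay between 0.13 and 0.75, with a median of 0.30, while 50.7% of all genes had a mean above 0. The group's median was 0.04 and -0.05 on arrays 1 and 2, and 0.56 to 0.80 on arrays 3 to 6. The mean of ADE13 was -0.03 with arrays 3 and 5, and 4 and 6, averaged, and that of ADE6 was -0.13 without array 6. Of the 8 genes, 2 rose and 6 did not pass, beside 9.41% of all genes called higher. ADE2, which encodes phosphoribosylaminoimidazole carboxylase, stood at 0.29, 0.90, 0.59, 0.79, 0.83 and 1.08 on arrays 1 to 6. It was above 0 on every array, with its lowest value on array 1. Its mean of 0.75 ± 0.27 (SD, n = 6), a ratio of 1.68, passed the test (limma, adjusted p = 0.00366), and p was 0.0312 in the two-sided exact permutation of signs, the smallest possible with 6 arrays. Of 15 alternative settings the call was lost in 1, the values as deposited (mean 0.86, limma adjusted p = 0.0892).

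The last reactions of IMP synthesis are catalysed by a pair of related bifunctional enzymes, encoded by ADE16 and ADE17, which use formyl-tetrahydrofolate. ADE16 stood at 0.40, -0.01, 1.17, 0.85, 0.66 and 0.71 on arrays 1 to 6. It was at the array median on array 2 and above it on the other 5. The mean of 0.63 ± 0.40 passed (limma, adjusted p = 0.0172), but not without array 3 (0.0651) or array 6 (0.0567), with the correlated arrays averaged in pairs (0.120) or as deposited (0.181). ADE17 had the larger mean and the larger spread, 0.72 ± 0.86, and did not pass (limma, adjusted p = 0.0704). It was at -0.23 and -0.21 on arrays 1 and 2 and between 0.50 and 1.75 on the other 4, and it passed when array 1 (0.0337) or array 2 (0.0309) was left out.

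The other genes of IMP synthesis did not pass, with SDs between arrays from 0.29 to 0.85. ADE4 encodes the amidotransferase that starts the pathway and stood at 0.17 ± 0.39. For the next steps, ADE8 (glycinamide ribonucleotide formyltransferase) stood at 0.25 ± 0.29 and ADE6 (formylglycinamidine ribonucleotide synthetase) at 0.19 ± 0.85. ADE6 owed its highest value, 1.76, to array 6, where its 2 spots differed by 0.77, and it was at 0.48 or below on the other arrays. ADE1, which encodes the enzyme after Ade2, stood at 0.36 ± 0.74, from -0.43 on array 2 to 1.55 on array 4. ADE13, adenylosuccinate lyase, acts in IMP synthesis and again in the AMP arm, and stood at 0.13 ± 0.60. ADE12, adenylosuccinate synthase, the first enzyme of the AMP arm, stood at 0.37 ± 0.54 and passed only without array 2 (limma, adjusted p = 0.0383) among the 15 alternatives.

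A group of 4 of these genes shared a profile over the arrays. ADE1, ADE12, ADE13 and ADE17 were each below 0 on arrays 1 and 2 and above 0 on arrays 3 to 6. This profile, singled out after the values were seen, was held by 3.50% of all genes. BAS1, the regulator gene, did not follow it and stood at 0.20 ± 0.36 (limma, adjusted p = 0.401). Its lowest values were on arrays 3 (-0.32) and 5 (-0.17), and the activity of Bas1 was not measured.

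The GMP arm had its means on the opposite side. All 4 of its genes had means below 0, between -0.61 and -0.30, of which 1 passed the adjusted threshold and 3 an unadjusted p under 0.05. Of all genes, 50.7% had a mean above 0, 15.1% passed the adjusted threshold and 29.5% the unadjusted one. GUA1, GMP synthase, stood at -0.70, -0.85, -1.30, 0.33, -0.95 and -0.21 on arrays 1 to 6. It was below 0 on 5 of 6 arrays and above it on array 4. Its mean of -0.61 ± 0.58 was only just past the threshold (limma, adjusted p = 0.0476). That call was kept in 7 of 15 alternatives. It was lost without array 1, 2, 3, 5 or 6 (limma, adjusted p = 0.107, 0.0887, 0.155, 0.130 and 0.0716), with centring by runs of consecutive spots (0.106), with the correlated arrays averaged (0.0842) and as deposited (0.574).

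IMP dehydrogenase, which commits IMP to guanine nucleotides, is encoded by the closely related genes IMD2, IMD3 and IMD4. They stood at -0.51 ± 0.58, -0.30 ± 0.58 and -0.49 ± 0.47, and none passed (limma, adjusted p = 0.0936, 0.314 and 0.0682). The profiles of the 3 genes were alike: each had its highest value on array 2 (0.52, 0.56 and 0.21) and its lowest on array 3 (-1.17, -1.11 and -1.20). IMD2 minus IMD4 was -0.02 ± 0.20 over the 6 arrays, IMD2 minus IMD3 was -0.20 ± 0.20 (below 0 on 5 of 6 arrays, exact permutation p = 0.0625, adjusted 0.125) and IMD3 minus IMD4 was 0.19 ± 0.23 (above 0 on 5 of 6 arrays, exact permutation p = 0.125, adjusted 0.200). Without probe sequences, a signal shared between these copies and 3 separate signals cannot be told apart. Without array 2, IMD2 (limma, adjusted p = 0.00907) and IMD4 (0.0186) passed as lower, as both did with array weights (0.0173 and 0.0205). IMD2 also passed as lower with centring by runs of spots (limma, adjusted p = 0.0269).

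The same extremes, highest on array 2 and lowest on array 3, were found for 2 salvage genes. APT1, adenine phosphoribosyltransferase, stood at -0.39 ± 0.30, from -0.82 to 0.08, and FUR1, uracil phosphoribosyltransferase, at -0.72 ± 0.78, from -2.08 to 0.35. Among all genes 3.90% had these extremes. Neither gene passed (limma, adjusted p = 0.0784 and 0.0557), but both did without array 2 (0.0301 and 0.0132). FUR1 also passed with arrays scaled to the same spread (0.0398), with quantile normalization (0.0281), on its first spot alone (0.0444) and with array weights (0.0171), and APT1 also with array weights (0.0255). The remaining purine salvage genes gave no call: AAH1, adenine deaminase, stood at -0.23 ± 0.44, and HPT1, hypoxanthine-guanine phosphoribosyltransferase, at 0.00 ± 0.41. The 2 spots of AAH1 differed by 1.35 on array 6, the widest gap of any of the 40 genes, for which 94.2% of 240 spot pairs lay within 0.3 of each other.

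**Figure D2:**
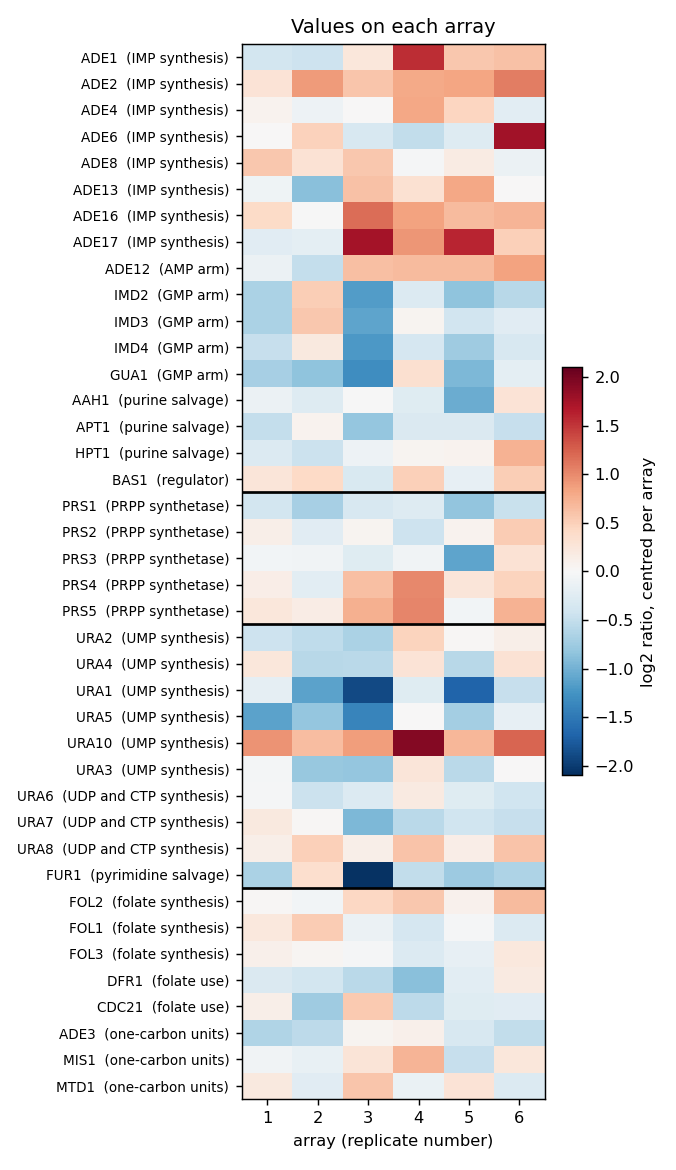
Heat map of the centred log2 ratio (colour, red above and blue below the array median) of the 40 genes (rows, with their role) on arrays 1 to 6 (columns). The IMD genes are red on array 2 and deepest blue on array 3, and ADE1, ADE12, ADE13 and ADE17 are blue on arrays 1 and 2 and red on the other 4, palest for ADE13 on array 6.

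PRPP, the sugar phosphate used by both nucleotide pathways, is made by PRPP synthetase, whose subunits are encoded by PRS1 to PRS5. PRS1 stood at -0.39, -0.69, -0.33, -0.27, -0.83 and -0.46 on arrays 1 to 6. It was below 0 on every array, and with an SD of 0.22 it was among the least variable of the 40 genes. Its mean of -0.50 passed (limma, adjusted p = 0.0220), a ratio of 0.709. It no longer passed without array 1 (0.0534), array 5 (0.0826) or array 6 (0.0539), with the correlated arrays averaged (0.0717) or as deposited (0.771). The other 4 subunit genes did not pass: PRS2 and PRS3 stood at 0.02 ± 0.33 and -0.21 ± 0.48, and PRS4 and PRS5 at 0.38 ± 0.42 and 0.47 ± 0.42. PRS5 was above 0 on 5 of 6 arrays (limma, adjusted p = 0.0642). PRS4 passed without array 2 (0.0439) and with centring by runs of spots (0.0193).

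UMP synthesis held the largest differences of the 40 genes in both directions. Of its 6 genes 1 rose, 2 fell and 3 did not pass, beside 9.41% of all genes called higher and 5.69% lower. URA1, dihydroorotate dehydrogenase, stood at -0.19, -1.12, -1.89, -0.25, -1.68 and -0.48 on arrays 1 to 6. It was below 0 on all of them, and lowest on arrays 3, 5 and 2. The mean of -0.93 ± 0.74, a ratio of 0.523, passed (limma, adjusted p = 0.0149), and narrowly missed without array 3 (0.0509) or array 5 (0.0528). It also missed with the correlated arrays averaged (0.0682) and as deposited, where it stood at -0.82 (limma, adjusted p = 0.118).

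Orotate phosphoribosyltransferase, the step at which PRPP joins the pyrimidine ring, is encoded by a pair of paralogs, URA5 for the major and URA10 for the minor enzyme. URA5 stood at -1.12, -0.82, -1.39, 0.01, -0.71 and -0.18 on arrays 1 to 6, below 0 on 5 of them and at the array median on array 4. URA10 stood at 0.95, 0.64, 0.88, 1.92, 0.69 and 1.23, above 0 on all 6. The values of the paralogs did not overlap. URA5 fell by 0.70 ± 0.54 on the log2 scale (limma, adjusted p = 0.0215) and URA10 rose by 1.05 ± 0.47, a ratio of 2.07 (adjusted p = 0.00190). The URA10 call held in all 15 alternatives (limma, adjusted p from 0.000602 to 0.0143), the values as deposited included. The URA5 call was lost without array 1 (0.0690), array 3 (0.0771) or array 5 (0.0549), and as deposited (0.413).

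Within each array URA10 stood above URA5 by 1.40 to 2.27, a mean difference of 1.75 ± 0.38 over 6 of 6 arrays. Of 8 pairs of related enzymes compared in this way, it was the only one with a single direction on all arrays (two-sided exact permutation of signs, p = 0.0312, again the smallest possible, and 0.125 adjusted over the 8 pairs). With that smallest p a lone pair of 8 could not pass 0.05 after adjustment. As the values of URA5 (highest 0.01) and URA10 (lowest 0.64) did not overlap, the direction was already set. The permutation p therefore adds no support to the calls of URA5 and URA10. The CTP synthase genes came next: URA8 stood at 0.35 ± 0.24, above 0 on 6 of 6 arrays, and URA7, the major one, at -0.36 ± 0.42. They differed by 0.71 ± 0.49, with URA8 higher on 5 of 6 arrays (exact permutation p = 0.0625, adjusted 0.125). Neither passed by itself (limma, adjusted p = 0.0922 and 0.144), and URA8 did so with centring by runs of spots (0.0193). ADE16 and ADE17 differed by a mean of 0.09 ± 0.58 (exact permutation p = 0.750), with a different sign on 3 arrays each way.

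**Figure D3:**
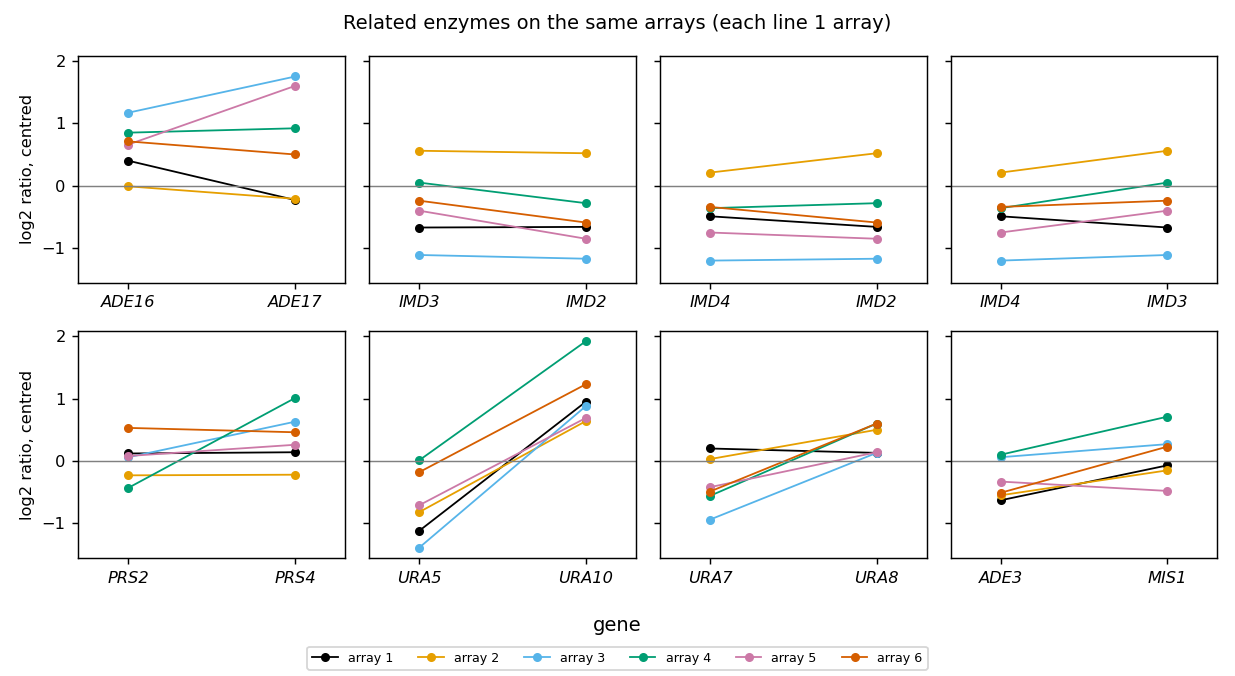
Centred log2 ratio (vertical axis) of 8 pairs of related genes on the same arrays, each line 1 array. All 6 lines rise from URA5 to URA10, by 1.40 to 2.27, 5 of 6 rise from URA7 to URA8, and the IMD pairs differ by at most 0.45 on any array.

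The rest of the pyrimidine branch lay nearer to the array median. URA2, which encodes the enzyme for the first reactions (carbamoyl phosphate synthetase and aspartate transcarbamylase), stood at -0.17 ± 0.45. URA4, dihydroorotase, stood at -0.16 ± 0.47 and URA3, orotidine phosphate decarboxylase, at -0.33 ± 0.46. Both were below -0.5 on arrays 2, 3 and 5, the arrays on which URA1 was lowest, and URA4 was between 0.24 and 0.30 on the other 3. URA6, the kinase that makes UDP from UMP, stood at -0.21 ± 0.25. None of these 4 passed (limma, adjusted p from 0.205 to 0.581). PPR1, the regulator gene, stood at 0.11 ± 0.31 (0.636).

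In folate synthesis the genes were closest to no difference. FOL2, GTP cyclohydrolase, which starts the pathway from GTP, stood at 0.29 ± 0.30 and was above 0 on 5 of 6 arrays (limma, adjusted p = 0.193). FOL1, a trifunctional enzyme of the middle steps, stood at 0.00 ± 0.34 and FOL3, dihydrofolate synthetase, at -0.02 ± 0.18, the smallest SD of the 40 genes. Folate is used in a cycle by thymidylate synthase and dihydrofolate reductase. DFR1, the reductase gene, stood at -0.36 ± 0.36, below 0 on 5 of 6 arrays (limma, adjusted p = 0.122), and passed with centring by runs of spots (0.0248). CDC21, the thymidylate synthase gene, stood at -0.18 ± 0.46, and its 2 spots differed by up to 0.53.

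Of the genes that interconvert folate one-carbon units, ADE3, the cytosolic trifunctional enzyme, stood at -0.31 ± 0.32 (limma, adjusted p = 0.163), and MIS1, its mitochondrial counterpart, at 0.09 ± 0.41. MIS1 stood above ADE3 by 0.40 ± 0.33, on 5 of 6 arrays (exact permutation p = 0.0625, adjusted 0.125). MTD1, a cytosolic dehydrogenase of the same pathway and a known target of Bas1, stood at 0.07 ± 0.34 (limma, adjusted p = 0.794). Its largest value was 0.58, on array 3.

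Compared by branch, the median of the means was 0.17 for the purine genes, 0.02 for the PRPP synthetase genes, -0.27 for the pyrimidine genes and -0.01 for the folate and one-carbon genes. When medians were taken on each array instead, the purine median was above 0 on 3 of 6 arrays and the pyrimidine median below 0 on 5 of 6. The purine median of an array stood above its pyrimidine median on 5 of 6 arrays, by 0.36 ± 0.31 on average, and was 0.09 below it on array 1. The purine and folate medians differed by 0.15 ± 0.28, with purine higher on 4 of 6 arrays. Folate stood above pyrimidine by 0.21 ± 0.44, on 5 of 6 arrays. Each of these differences was smaller than its spread between arrays or not much above it. No test was made on branch medians because the genes were chosen with results known. In calls, 3 of 17 purine genes (17.6%), 3 of 10 pyrimidine genes (30.0%), 1 of 5 PRPP synthetase genes and 0 of 8 folate genes passed, beside 15.1% of all genes.

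In log2 units the split inside the purine branch was wider than the differences between branches, and so was its spread over arrays. The IMP synthesis median stood above the GMP arm median by 0.71, 1.77, 0.91, 1.41 and 0.85 on arrays 1, 3, 4, 5 and 6, and was 0.42 below it on array 2. The mean difference was 0.87 ± 0.75, not much above its spread, as was the case for purine minus pyrimidine (0.36 ± 0.31). This division was made by role, after the values were seen. Of the 4 GMP arm genes 3 are IMD genes, which may share a signal, so the arm's median mostly follows them. On array 2 IMD2, IMD3 and IMD4 were at 0.52, 0.56 and 0.21, while GUA1 was at -0.85. Without the 4 GMP arm genes the purine median was 0.20.

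**Figure D4:**
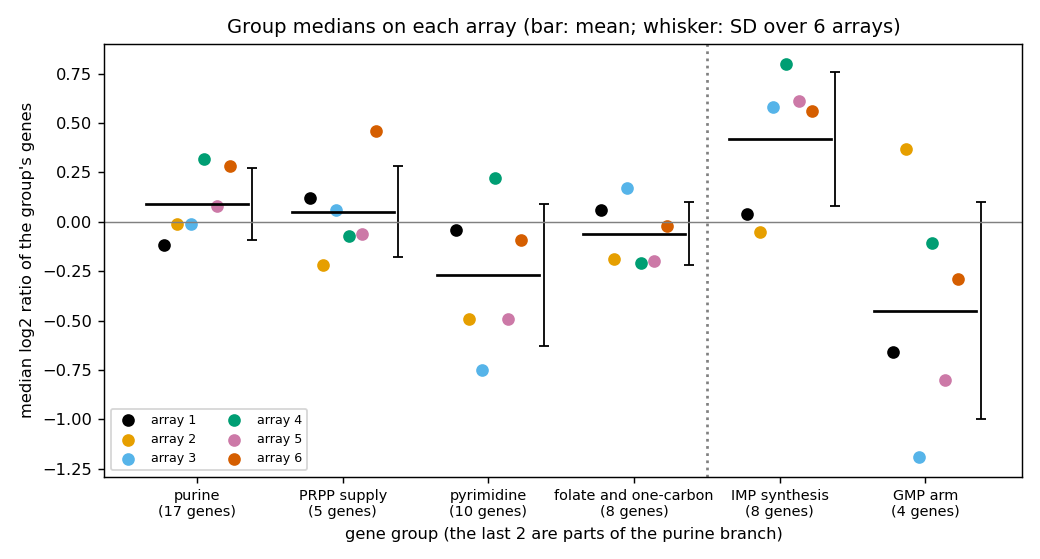
Median log2 ratio of each group's genes (vertical axis) on each of 6 arrays (coloured points), with the mean (bar) and SD (whisker) over arrays. The ranges of the 4 branches over the arrays overlap. So do those of IMP synthesis (-0.05 to 0.80) and the GMP arm (-1.19 to 0.37), 2 parts of the purine branch. Within arrays, IMP synthesis is above the GMP arm on 5 and below it on array 2, and purine is likewise above pyrimidine on 5 of 6. On array 2 the GMP arm median follows the IMD genes, with GUA1 at -0.85.

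A further list of 41 genes of the same pathways, which are not among the 40, held 39 measured genes. Of these 4 rose, 2 fell and 33 did not pass, or 15.4% called beside 15.1% of all genes. All 4 that rose encode enzymes that load one-carbon units onto folate: GCV1, GCV2 and GCV3 encode subunits of the mitochondrial glycine cleavage complex, and SHM2 the cytosolic serine hydroxymethyltransferase. GCV1 stood at 1.54, 0.83, 2.04, 1.39, 0.44 and 0.71 on arrays 1 to 6, above 0 on all of them, with a mean of 1.16 ± 0.60 (limma, adjusted p = 0.00241), and held in all 15 alternatives. GCV2 stood at 0.90 ± 0.63 (adjusted p = 0.0110) and missed the threshold in 1 of 15, with the correlated arrays averaged (0.0573).

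GCV3 stood at 1.05 ± 0.97 (limma, adjusted p = 0.0240), with values of 2.27 and 2.14 on arrays 5 and 6 and of 0.14 and 0.07 on arrays 1 and 2. It lost its call without array 3 (0.0629), array 5 (0.0737) or array 6 (0.0976), with centring by runs of spots (0.0760) and with the correlated arrays averaged (0.107). SHM2 stood at 0.84 ± 0.85 (limma, adjusted p = 0.0395), was below 0 on array 2 at -0.27, and lost its call without array 3 (0.123), array 4 (0.114), array 5 (0.121) or array 6 (0.0831), and in the same 2 other settings (0.0603 and 0.240). The mitochondrial counterpart of SHM2, SHM1, stood at -0.33 ± 0.31 and did not pass (0.137). In all, 4 of the 13 listed folate and one-carbon genes outside the 40 were called, all higher (30.8%), beside 9.41% of all genes called higher. The list was made with earlier results of these data known, so this share is a description and gives no support. Of the 4, 3 encode subunits of 1 complex. In the same 13, 2 were lower at an unadjusted limma p under 0.05, SHM1 among them. Of all genes, 29.5% had an unadjusted p that low, in either direction.

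The 2 genes that fell were DCD1, the deoxycytidylate deaminase gene of thymidylate synthesis, and GUK1, guanylate kinase, which makes GDP from GMP. DCD1 stood at -1.52, -0.91, -0.78, -0.17, -0.76 and -0.65 on arrays 1 to 6, below 0 on every array. Its mean of -0.80 ± 0.44 passed (limma, adjusted p = 0.00687) and lost its call only as deposited (0.262) among the 15 alternatives. GUK1 stood at -0.54 ± 0.49 and was barely past the threshold (limma, adjusted p = 0.0494), was lower on 6 of 6 arrays, and lost the call when any 1 array was left out (0.0565 to 0.163), with centring by runs of spots (0.128), with the correlated arrays averaged (0.0793) and as deposited (0.680), so it was kept in 6 of 15 alternatives. PHO2, the partner of BAS1, stood at 0.31 ± 0.51 (limma, adjusted p = 0.257).

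**Figure D5:**
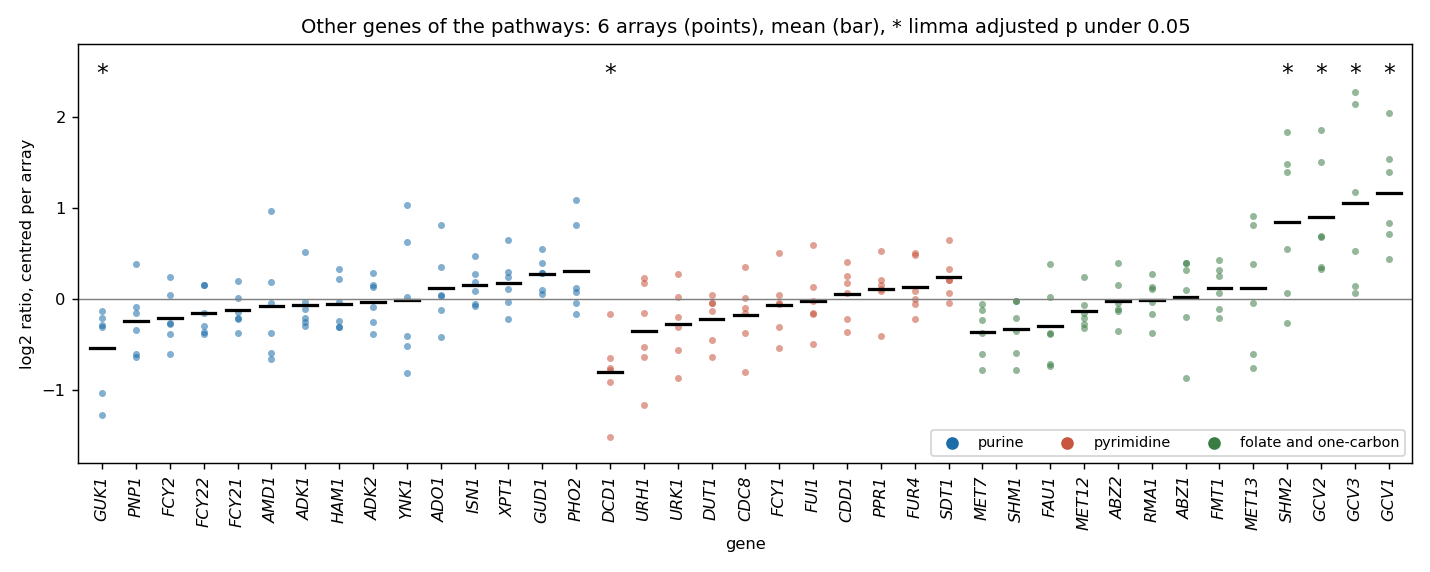
Centred log2 ratio (vertical axis) of 39 other genes of the purine, pyrimidine and folate pathways on 6 arrays (points) with the mean (bar). Asterisks mark a limma adjusted p under 0.05: GCV1, GCV2, GCV3 and SHM2 stand highest, and DCD1 and GUK1 lowest.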

How the data were processed

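The authors deposited log2 ratios of the 2 channels (log base taken as 2, numerator not stated) for 13056 spots on 6 arrays, per the labels met4 mutant in Cy3 and wild type in Cy5. How the slides were printed, scanned and corrected is not given in the sources used here. Other columns of sample values numbered 0. No intensities were used here, so dim spots could not be marked. Here, 134 exact zeros were set to missing (0 in the 40 genes), each array was centred on its median over all spots, and the spots of a gene were averaged, giving 5539 genes from 11138 named spots, with a value on at least 4 arrays required. The mean against 0 was tested in R 4.3.3 by an intercept-only fit with moderated variances (limma 3.58.1), Benjamini-Hochberg adjusted over all genes, at 0.05, after a check on simulated data. Single genes and pairs were also tested by exact sign-flip over 64 patterns. All 40 genes are named, as are other pathway genes past the threshold, up to 8 by size. PHO2, PPR1 and SHM1 were named in addition, after their values were seen. Members and lists were chosen with earlier results of these data known. In the list of other pathway genes, the annotation used here held no spot named ADE5,7 or IMD1. The R64 gene table gave names only, and no coordinates or sequences are printed. Alternatives were no centring, centring of 48 runs of consecutive spots, equal spread, quantile normalization, zeros kept, first spot only, robust eBayes, array weights, correlated arrays averaged and each array left out. The number of arrays limits the precision. Figures were drawn with matplotlib 3.10.9.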

Additional observations from a re-analysis of the deposited data

How the results depend on the processing

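Of the 40 genes, 7 passed the threshold in the reported setting, where 15.1% of all genes did. The count was 1 in the values as deposited (4.44% of all genes) and 11 with array weights (1090 genes, or 19.7% of all). With arrays 3 and 5, and 4 and 6, averaged it was 3 (6.61% of all genes). Leaving out each array in turn gave between 3 and 13. The highest count, 13, came without array 2 (17.4% of all genes). The lowest, 3, came without array 3 (8.23%) or array 5 (9.35%), while array 6 gave 4 (9.53%). Over all genes the count of 836 became 246 as deposited, 366 with the correlated arrays averaged, and 456 to 965 with 1 array left out. Of all calls, 37.7% were lower after centring and 24.0% as deposited. None of the 40 genes, the called pathway genes or MET4 turned its sign while past the threshold in any of 15 alternatives. The branch medians, and both differences from the purine median, moved by less than 1 SD of their array medians in each alternative run on them. The purine median lay between 0.09 and 0.28, the pyrimidine median between -0.32 and -0.15. Each log ratio already pairs mutant and wild type on 1 array, and as the arrays form 1 group no further replicate block could be added. What dim spots limit is unknown, as intensities were not used here.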
